A study of Mus musculus and Homo sapiens with 42 samples.

Results

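GYPB and GYPE encode glycophorin B and glycophorin E, and both transcripts were low in K562 cells after knockdown of the chromatin remodeler CHD9. They are 2 of the 29828 genes in the K562 table, and both were among the 9171 genes with enough counts to be tested. They were picked for their strong loss in CHD9 knockdown against control libraries, so their levels in that contrast are given as a description without a test. K562 is a line of human chronic myelogenous leukemia cells and SNB19 a line of human glioblastoma cells. The cells carried doxycycline-inducible short hairpin RNAs, either of 2 hairpins against CHD9 (shRNA-CHD9#1 and shRNA-CHD9#2) or a control hairpin against luciferase (shRNA-Luc). All groups, the controls included, received 1 µg/ml doxycycline for 48 hours, and each hairpin was sequenced in 2 libraries per line, exp1 and exp2. The labels do not say whether exp1 and exp2 were separate cultures, so p-values measure only the spread between these libraries, which may be technical. Livers of E15 mouse embryos of strain FVB;129P2-Chd9, 2 Chd9-/- and 2 wild type, served as an erythroid tissue of the same study. The germline knockout lacks the protein-coding exons of Chd9 in every cell of the embryo. The hairpins instead lowered CHD9 for a short time, in lines that have no normal counterpart beside them.

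Glycophorins are sialic acid-rich membrane proteins of red blood cells. Glycophorin B carries the Ss blood group antigens. GYPB and GYPE lie side by side on chromosome 4 and arose by duplication within 1 family, whereas GYPC, at another locus, encodes the unrelated glycophorin C, which ties the membrane to protein 4.1 of the skeleton. GYPE has a transcript in erythroid cells, but its protein is hard to find on red cells. K562 cells have long been used as a model of early erythroid cells because they make embryonic and fetal globins and glycophorin.

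The likeness of the duplicated genes decides how far counts can be assigned to one of them, and the start of the coding sequence shows it. The first 120 coding bases of the GYPB and GYPE reference transcripts (GENCODE v29, which is on GRCh38) are printed 5′ to 3′, with capitals at the 4 positions at which the pair differs.
GYPB: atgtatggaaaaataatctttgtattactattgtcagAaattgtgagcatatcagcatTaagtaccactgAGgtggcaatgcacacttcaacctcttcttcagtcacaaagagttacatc
GYPE: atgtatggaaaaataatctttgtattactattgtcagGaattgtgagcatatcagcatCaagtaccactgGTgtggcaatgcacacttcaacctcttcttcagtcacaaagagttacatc
The whole coding sequences held 273 bases in GYPB and 234 in GYPE, or 91 and 78 codons without the stop, and over aligned coding bases the pair was 86.3% identical. Of all stretches of 50 bases in the GYPB transcript, 4.66% also occurred without a mismatch in a transcript of GYPE. In the GYPE transcript 1.04% of such stretches occurred in a transcript of GYPB. Nearly all stretches of this length thus lacked an exact match in the other gene, for which a single mismatch is enough. This does not measure how many reads could be placed on both genes. The treatment of reads that match several genes is not given in the sources used here, so the levels of both genes are uncertain as far as reads were shared within the family.

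GYPB was low in every CHD9 knockdown library. The control libraries of K562 held 546 and 691 GYPB counts, those of shRNA-CHD9#1 held 62 and 44, and those of shRNA-CHD9#2 held 37 and 42. In CPM, the counts scaled to a common library size of 1000000, GYPB stood at 62.8 and 82.4 in the controls, at 7.22 and 5.36 with shRNA-CHD9#1 and at 4.14 and 4.59 with shRNA-CHD9#2. The highest knockdown library was therefore far below the lowest control, and the control libraries differed from each other more than the knockdown libraries did on this scale. The mean of the knockdown libraries was 5.33 ± 1.36 CPM (SD, n = 4) and that of the controls 72.6 ± 13.9 CPM (SD, n = 2), so that GYPB stood at 7.34% of the control level or 13.6-fold lower. The fitted log2 fold change was -3.77 (SE 0.20), the 6th lowest of the 9171 genes tested. Among the 3279 genes at least as abundant as GYPB in the controls, GYPB ranked 1st from the lowest.

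GYPE started from a higher level and lost a smaller share. Its counts were 1935 and 1933 in the controls, 334 and 298 with shRNA-CHD9#1, and 301 and 310 with shRNA-CHD9#2. The corresponding CPM values were 222.5 and 230.5, then 38.9 and 36.3, then 33.7 and 33.9. The libraries of each group lay close together, and all 4 knockdown libraries were far below both controls. The mean was 35.7 ± 2.44 CPM (SD, n = 4) after knockdown and 226.5 ± 5.69 CPM (SD, n = 2) in controls, that is 15.8% of the control level or 6.35-fold lower. The log2 fold change of -2.67 (SE 0.09) ranked 25th from the lowest of all genes tested, and 3rd among the 1239 genes at least as abundant as GYPE in the controls. Both genes thus had groups that did not overlap, which in the lower direction was also the case for 26.1% of all genes tested, and both were past the cut-off used for all other genes (adjusted p under 0.05 and a log2 change beyond 1), as were 3.50% of genes tested in this direction. Since the contrast itself chose them, nothing is read from either share or from the ranks of GYPB and GYPE.

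**Figure D1:**
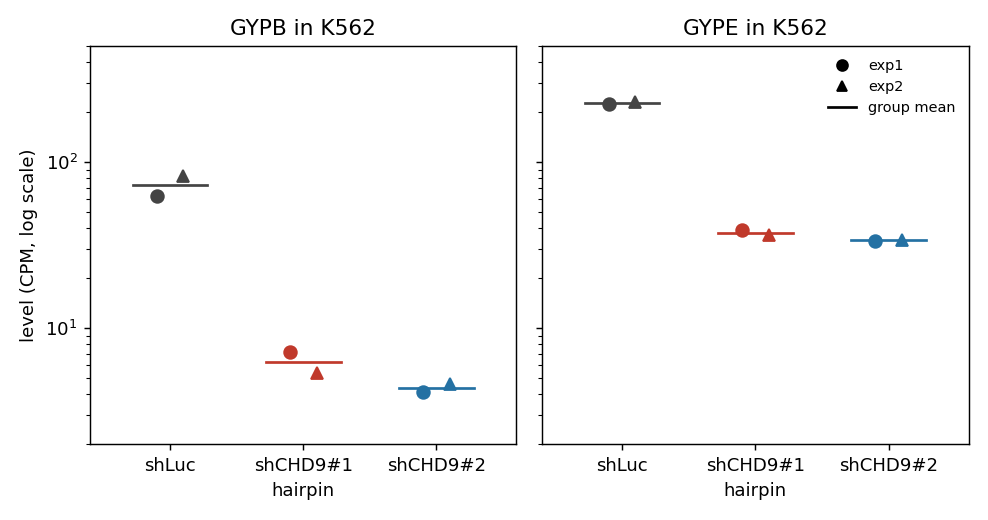
Level of GYPB and GYPE in CPM (log axis) in each of the 6 K562 libraries, grouped by hairpin, with circles for exp1, triangles for exp2 and lines for the mean of the 2 libraries. GYPB stood between 4.14 and 7.22 CPM and GYPE between 33.7 and 38.9 CPM in the knockdown libraries, all below the control libraries of the same gene.

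GYPB lost more than GYPE in relative terms, so the proportion between the pair changed. For every 100 GYPE counts the control libraries held 28.2 and 35.7 GYPB counts. With shRNA-CHD9#1 there were 18.6 and 14.8, and with shRNA-CHD9#2 12.3 and 13.5. Per kilobase of all annotated exons GYPE was the more abundant of the pair in each group. Its mean levels were 113, 18.8 and 16.9 CPM per kilobase in shRNA-Luc, shRNA-CHD9#1 and shRNA-CHD9#2, whereas GYPB stood at 38.8, 3.36 and 2.33. These exons span 1872 bases in GYPB and 2004 in GYPE, but the reference transcripts only 521 and 1684. The order of the pair per kilobase in controls thus depends on the length used and is not firm. Summed to 1 feature, which removes the question of how reads shared by the pair were split, GYPB and GYPE together stood at 285.3 and 313 CPM in controls and between 37.8 and 46.1 CPM after knockdown. Their joint log2 fold change was -2.87. In bulk RNA, fewer cells that express a gene and less of its RNA per cell cannot be told apart.

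Both hairpins came with low levels of both genes. GYPB was left at 8.66% of the control mean with shRNA-CHD9#1 and at 6.01% with shRNA-CHD9#2, and GYPE at 16.6% and 14.9%. The contrast between the hairpins was tested with edgeR's quasi-likelihood test over the 9171 genes. GYPB and GYPE were picked for their loss in these same libraries, so this test is not independent of their choice. For GYPB, hairpin 1 minus hairpin 2 was 0.53 on the log2 scale, with a 95% interval from -0.03 to 1.08 (Benjamini-Hochberg adjusted p = 0.143). For GYPE the difference was 0.16, with an interval from -0.05 to 0.36 (adjusted p = 0.236). Neither passed the test, which does not show that the hairpins act alike, since the interval of GYPB reaches a log2 difference of 1.08. By adjusted p alone, 14.7% of all genes tested were lower and 15.2% higher with hairpin 1. With a log2 difference beyond 1 required as well, 4.02% differed between the hairpins.

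CHD9, the targeted gene and a helicase of the chromodomain family, was lower with both hairpins. Its K562 counts were 2858 and 2039 in controls, 1256 and 1137 with shRNA-CHD9#1, and 1345 and 1390 with shRNA-CHD9#2. All knockdown libraries were below both controls, which themselves stood apart from each other at 328.6 and 243.2 CPM. Knockdown left 146.8 ± 5.97 CPM (SD, n = 4) of 285.9 ± 60.4 CPM (SD, n = 2), or 51.3% (log2 fold change -0.96, SE 0.12, edgeR adjusted p = 0.000599). The share of transcript left was therefore larger for CHD9 than for GYPB or GYPE in each of the knockdown libraries. Between the hairpins CHD9 differed by -0.09 on the log2 scale, with a 95% interval from -0.32 to 0.15 (adjusted p = 0.602).

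**Figure D2:**
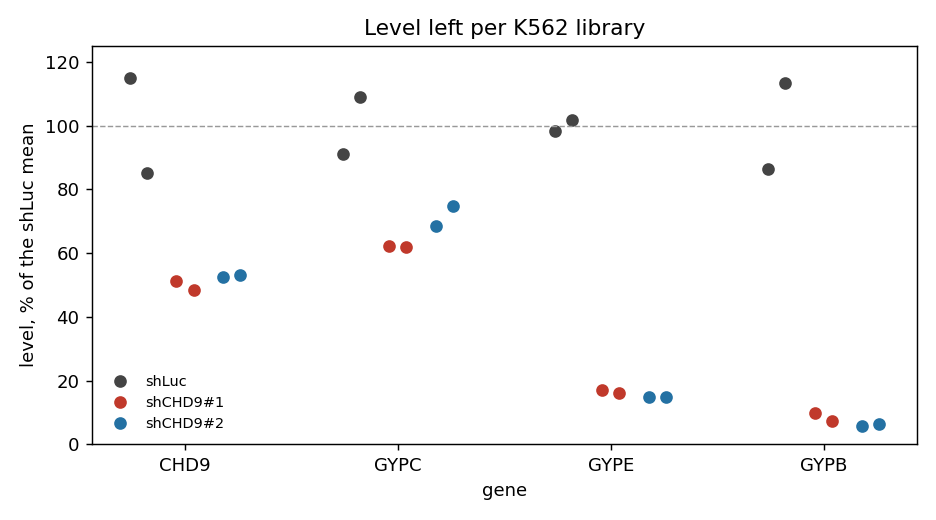
Level of CHD9, GYPC, GYPE and GYPB in each K562 library as a percent of the mean of the shRNA-Luc libraries (dashed line at 100%), with 1 point per library coloured by hairpin. In the knockdown libraries CHD9 stood between 48.5% and 53.2%, GYPC between 61.9% and 74.9%, GYPE between 14.9% and 17.2% and GYPB between 5.70% and 9.94%.

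Neither gene was detected in the glioblastoma line. All 6 SNB19 libraries held 0 counts of GYPB and 0 of GYPE. Taken as the limit that a count of 0 allows, 3 counts correspond to 0.286 to 0.315 CPM of the raw library totals. This limit covers counting error only. A change of either gene after knockdown could therefore not be measured in SNB19, where CHD9 fell to 40.9% of its control level (262 ± 52.4 CPM, SD, n = 4, against 642 ± 10.2 CPM, SD, n = 2, log2 fold change -1.29, adjusted p = 0.000882). GYPC had no more than 9 counts in any SNB19 library. Per kilobase of all annotated exons, the order of the glycophorins in K562 controls was GYPC at 131 and GYPE at 113 CPM, followed by GYPB at 38.8. The gap between the first pair was close to the SD of GYPC, 16.5 CPM per kilobase (n = 2), so their order is not firm. The place of GYPB depends on the length used, as given above.

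GYPC, the glycophorin that is not of the duplicated family, kept a larger share of its level than GYPB and GYPE. It had 456 and 545 CPM in controls, 312 and 310 CPM with shRNA-CHD9#1, and 342 and 375 CPM with shRNA-CHD9#2. The groups did not overlap, and the mean after knockdown was 66.9% of the control mean. Its log2 fold change of -0.58 (SE 0.11) had an adjusted p of 0.00477 in edgeR, under the size of change required for a call. The adjusted p was 0.0656 when shRNA-Luc exp2 was left out.

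The K562 libraries held 8109941 to 9033846 counts and the SNB19 libraries 9518169 to 10476231. At the cut-off given above 12.9% of the genes tested in K562 changed after knockdown, 321 lower and 859 higher, and 3.97% of those tested in SNB19, 213 lower and 135 higher. Leaving out shRNA-Luc exp1 or exp2 reduced the K562 total from 1180 to 782 or 660 genes, and the SNB19 total from 348 to 124 or 127. The embryonic globin HBE1 was abundant in K562 and had at most 1 count in SNB19, while HBG1 was at 0 in SNB19. GATA1, TAL1, KLF1 and HBZ, which also mark erythroid cells, were not analysed here. The human tables list 48.9% of the protein-coding genes of GENCODE v29.

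Other genes of the red cell were compared in the same K562 contrast. Their lists were written from general knowledge, but with earlier results of these data known. Of 61 genes in 4 erythroid lists, 33 were listed and 30 could be tested. Of these, 2 fell (6.67%, against 3.50% of all genes tested) and 0 rose (against 9.37%), while 28 did not pass. The mean was lower after knockdown for 23 of the 30, and the median log2 fold change was -0.26, beside 0.01 over all genes tested. None of the 30 had a fold change as low as that of GYPE. GYPB and GYPE were picked for their loss in this contrast, so their lower place is only a description.

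Of the genes of the red cell membrane and its skeleton, 13 of 22 were tested, with a median log2 fold change of -0.36. Of these 13, 1 fell and none rose, beside 3.50% and 9.37% of all genes tested. SEMA7A, a semaphorin that carries the John Milton Hagen blood group, fell from 108 ± 5.65 CPM (SD, n = 2) to 47.2 ± 4.07 CPM (SD, n = 4) after knockdown (log2 fold change -1.20, adjusted p = 9.6e-05). TMOD1, which caps the actin filaments of the skeleton, was at -0.95 on the log2 scale (adjusted p = 0.000388) and so stayed short of a call. STOM, the membrane protein stomatin, was at 0.95 on that scale (adjusted p = 0.000613). By adjusted p alone, 5 of the 13 were lower and 2 higher, beside 13.6% and 17.6% of all genes. The other higher gene, RHD of the Rh blood group, was at 0.94 and is named here after its values were seen. RHD and its near copy RHCE can share reads, so their separate values are uncertain.

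Of 6 globin genes tested, 1 fell and none rose, with a median log2 fold change of -0.53. HBD, the delta chain of adult hemoglobin, fell from 20.1 ± 3.42 CPM (SD, n = 2) to 3.91 ± 0.811 CPM (SD, n = 4), or by 2.36 on the log2 scale (adjusted p = 1e-04), the change nearest to that of GYPE among the erythroid genes. The fetal chain HBG2 was at -0.50 on the log2 scale (adjusted p = 0.0263), and HBG1 at -0.58 (adjusted p = 0.173). These gene copies are nearly identical, so reads may be split between them, and for HBG2 the adjusted p was 0.0908 without shRNA-Luc exp1, 0.187 without shRNA-Luc exp2 and 0.0511 without shRNA-CHD9#1 exp2. HBE1, named after its values were seen, had 1650 ± 231 CPM in controls and 1640 ± 174 CPM after knockdown, with a log2 fold change of -0.02 (adjusted p = 0.938) whose sign depended on the libraries used. HBB had at most 2 counts and HBM at most 1 in any K562 library. HBE1, the most abundant globin examined, showed no detectable difference over both hairpins. GYPB and GYPE, picked for their loss, stood at a small part of their control level. Between the hairpins HBE1 differed by 0.26 on the log2 scale (hairpin 1 minus hairpin 2, edgeR adjusted p = 0.0235).

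None of the 8 tested genes of heme synthesis and iron uptake was called, and their median log2 fold change was -0.18. On the log2 scale FECH, which inserts iron into protoporphyrin, was at -0.97 (adjusted p = 0.000308). For SLC25A37, the mitochondrial iron importer mitoferrin, it was -0.67 (adjusted p = 0.000383). ALAD, an early enzyme of heme synthesis, had -0.84 (adjusted p = 0.0124), which became 0.0671 without shRNA-Luc exp1 and 0.123 without shRNA-Luc exp2. All 3 were lower by adjusted p without reaching the required size of change. The erythroid transcription factors were represented by 3 tested genes of 14, none of them called (12.9% of all genes tested were). GFI1B, a repressor needed for red cells and platelets, was at 0.38 on the log2 scale (adjusted p = 0.0124, but 0.0729 without shRNA-Luc exp1 and 0.0649 without shRNA-Luc exp2). NFE2 had -0.21 (adjusted p = 0.0922), and LDB1, a partner of GATA factors, had -0.03 (adjusted p = 0.797).

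**Figure D3:**
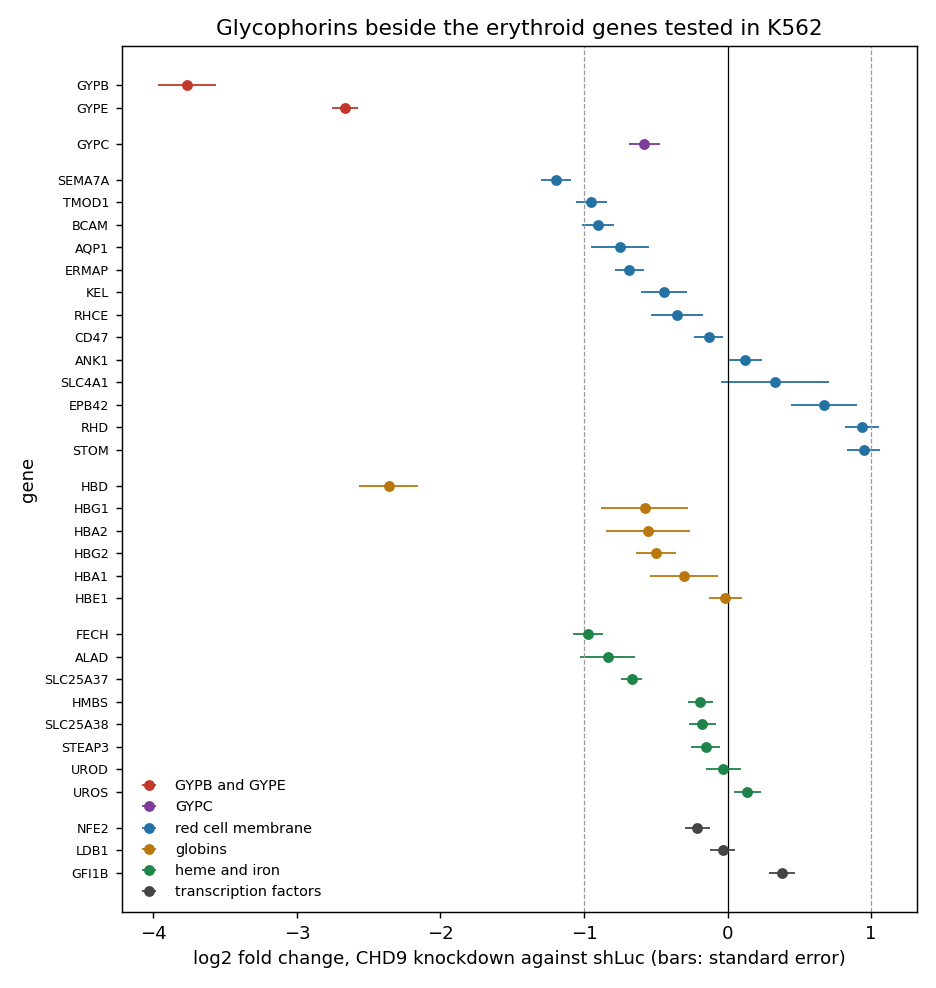
Log2 fold change of CHD9 knockdown against shRNA-Luc in K562, with the standard error as bars, for GYPB, GYPE, GYPC and the 30 tested genes of the 4 erythroid lists, coloured by list; dashed lines mark a log2 change of -1 and 1. GYPB at -3.77 and GYPE at -2.67, picked for their loss in this contrast, lie below all genes of the lists. Of the listed genes HBD at -2.36 comes closest.

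Markers of other lineages were examined in the same libraries as GYPB and GYPE. Summed over the megakaryocyte list, of which 8 of 14 genes were listed, the level was 82.6 to 100 CPM in controls and 140 to 154 CPM after knockdown, with 2 of 6 tested genes higher and none lower (background 9.37% and 3.50%). ITGA2B, the platelet integrin chain CD41, rose from 16.2 ± 4.47 CPM (SD, n = 2) to 66.0 ± 9.00 CPM (SD, n = 4), or by 2.03 on the log2 scale (adjusted p = 0.000162). Its partner ITGB3 was at 2.41 (adjusted p = 0.0104), which was no longer a call without shRNA-Luc exp1 (adjusted p = 0.0765) or exp2 (0.123). GP1BB, a subunit of the platelet receptor for von Willebrand factor, had -0.83 (adjusted p = 0.00317). GP1BA had -0.48 (adjusted p = 0.0598) and TUBB1 0.72 (adjusted p = 0.0246), while CD9 averaged 34.4 CPM in both groups. The rise of the megakaryocyte sum thus came mainly from ITGA2B. FLI1, a transcription factor of the lineage, was at 0 in all K562 libraries. The summed granulocyte and monocyte markers, 6 listed of 15, moved from 63.5 to 63.9 CPM in controls to 74.1 to 116 CPM, with 0 of 2 tested genes called. SPI1, the factor PU.1, made up most of this sum, at 56.8 to 58.1 CPM in controls and 72.2 to 112 CPM after knockdown, and was at 0.67 on the log2 scale (adjusted p = 0.0292, but 0.147 without shRNA-Luc exp1 and 0.177 without shRNA-Luc exp2), and PRTN3, a neutrophil protease, had -0.81 (adjusted p = 0.118). The defining granule gene MPO had no more than 1 count.

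Lymphoid markers, 6 listed of 9, summed to 21.3 to 21.6 CPM in controls and 36 to 46.1 CPM after knockdown. Of 3 tested genes, 1 was higher and none lower (background 9.37% and 3.50%). Most of the lymphoid sum was CD3D, at 20.4 to 21.3 CPM in controls and 32.8 to 42.8 CPM after knockdown. CD3D did not reach the size of change for a call. The called gene was CD4, at 0.522 CPM in controls and 2.07 CPM after knockdown (log2 fold change 1.96, adjusted p = 0.0248), and it was not called without shRNA-Luc exp2 (log2 fold change 1.36, adjusted p = 0.185). CD3D, a chain of the T cell receptor complex, stood at 0.89 on the log2 scale (adjusted p = 0.00297). The B cell factor PAX5 was at 0 in both controls and between 0.219 and 1.34 CPM after knockdown, with at most 11 counts (adjusted p = 0.0574), while the T cell genes CD2 and CD8A were at 0. Mesenchymal and glioma markers, 7 listed of 12, summed to 2830 to 2980 CPM and 2730 to 3260 CPM, ranges that overlap. FN1, which encodes the matrix protein fibronectin, fell from 1060 ± 233 CPM (SD, n = 2) to 96.4 ± 17.2 CPM (SD, n = 4), or by 3.46 on the log2 scale (adjusted p = 6.45e-06). CD44, the hyaluronan receptor, rose from 62.4 ± 0.209 CPM to 366 ± 151 CPM (log2 fold change 2.55, adjusted p = 0.00143), VIM had 0.66 (adjusted p = 0.000868), and the collagen gene COL1A2, named after its values were seen, fell with a log2 fold change of -1.55 (adjusted p = 0.00363, but 0.0506 without shRNA-Luc exp2). The part of these other lineages in the levels of GYPB and GYPE was not tested.

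Genes near GYPB and GYPE on chromosome 4 were examined in the same libraries. Within 1 Mb of GYPB and GYPE, 3 other protein-coding genes of GENCODE v29 are in the table. Neither of the 2 that could be tested was called, beside 12.9% of all genes tested. On one side of the pair, SMARCA5, which encodes the ISWI remodeler SNF2H, had 532 CPM in each control and 439 to 468 CPM after knockdown (log2 fold change -0.23, adjusted p = 0.0417). That adjusted p rose above 0.05 in all 6 fits that left out 1 library, where it lay between 0.0582 and 0.122. On the other side, ANAPC10, a subunit of the anaphase-promoting complex, had 29.2 to 33.6 CPM in controls and 24.5 to 26.5 CPM after knockdown, at -0.30 on the log2 scale (adjusted p = 0.0799). HHIP, an inhibitor of hedgehog signaling on the same side, had no more than 3 counts in any K562 library. USP38, GAB1, FREM3 and AC098588.1, which also lie in this window, were not analysed here. Of these, FREM3 and AC098588.1 come nearer to the pair in gene order than the tested SMARCA5 and ANAPC10.

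The genes with profiles most like those of GYPB and GYPE were found from log2 CPM over the 6 K562 libraries. Each profile was centred on its mean, and profiles were compared by the root mean square (RMS) difference. The log2 CPM values here include a prior count of 2, which narrows the drop of genes with few counts. These genes were chosen by their pattern, so their values are a description, and the 6 libraries differ mainly between control and knockdown. Closest to GYPB was BIN1, which encodes the membrane-bending protein amphiphysin 2, with an RMS difference of 0.21. BIN1 stood at 59.6 to 71.6 CPM in controls and 4.92 to 5.97 CPM after knockdown, levels much like those of GYPB itself, and unlike GYPB it was also present in SNB19, with up to 856 counts. Next came OR13C8, an olfactory receptor gene, at 2.87 to 4.06 CPM in controls and 0 in all knockdown libraries (RMS difference 0.27). Its likeness rests on the prior count, as its fitted log2 fold change was -7.91. For DACT2, also of few counts, the fitted change was -4.47. DACT2, a regulator of Wnt and TGF-beta signaling, followed at 0.38, FN1 at 0.49, and EMILIN2, an extracellular matrix gene at 11.9 to 12.6 CPM in controls and 0.875 to 2.19 CPM after knockdown, also at 0.49. GYPE was the 9th most like GYPB, with an RMS difference of 0.54.

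For GYPE the closest gene was ARHGDIG, at 22 to 27.8 CPM in controls and 3.66 to 4.58 CPM after knockdown, with an RMS difference of 0.16. The second, ENSG00000255509, has no symbol in the annotation and stood at 13.7 to 13.8 CPM and 1.51 to 1.90 CPM (RMS difference 0.18). APLNR, the receptor for apelin, had 84.6 to 89.6 CPM in controls and 16.8 to 20.4 CPM after knockdown (RMS difference 0.23). TCIM and MARC1 followed at 0.24 each, the former from only 1.19 to 1.49 CPM in controls. The likeness of TCIM also rests on the prior count, as its fitted log2 fold change was -4.98. GYPB was the 47th most like GYPE by RMS difference, which also counts the unlike size of their fall. The Pearson correlation of the pair over the 6 libraries was 0.995, and that of the 5 genes above with GYPE 0.982 to 0.994. In SNB19, where GYPE was not detected, APLNR and ARHGDIG had at most 1 count, MARC1 at most 12, ENSG00000255509 at most 90 and TCIM at most 191.

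**Figure D4:**
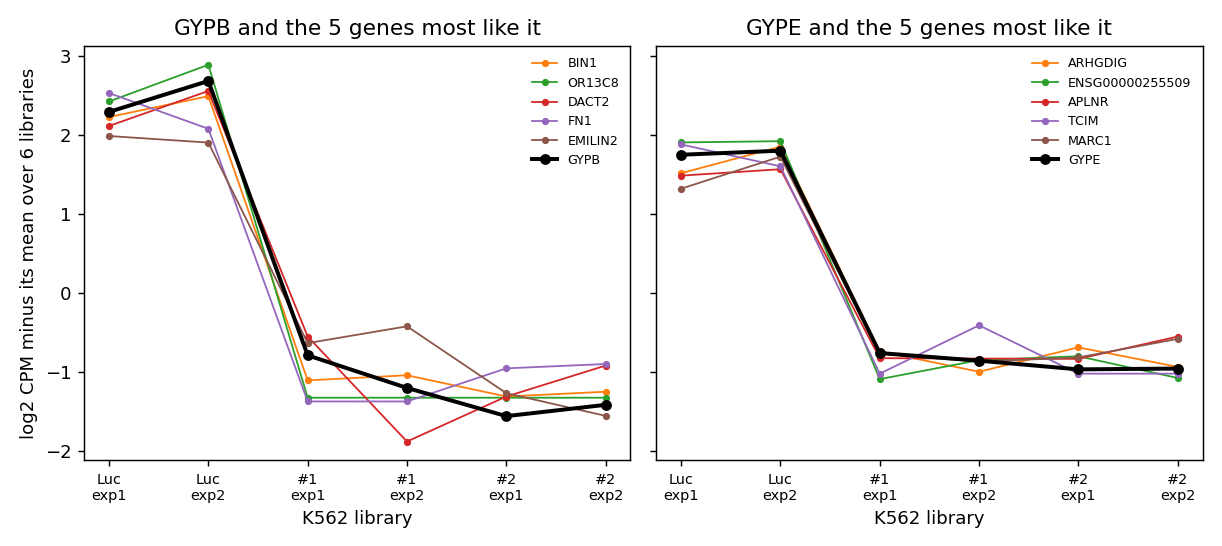
Centred log2 CPM (prior count of 2, which narrows the drop of genes with few counts) over the 6 K562 libraries. GYPB (left, black) and GYPE (right, black) are shown with the 5 genes most like each of them. All lines drop from the 2 shRNA-Luc libraries to the 4 knockdown libraries, and those beside GYPE lie closer together (RMS differences 0.16 to 0.24) than those beside GYPB (0.21 to 0.49).

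Mice have no GYPB or GYPE, since the duplication arose in primates. In E15 liver, at that stage the main site of red cell formation, other genes of the red cell were examined in Chd9-/- embryos. The 2 Chd9-/- livers had 1330 to 1360 CPM of Xist, the RNA of the inactive X chromosome, and at most 0.111 CPM of the Y-linked genes Kdm5d, Uty, Ddx3y and Eif2s3y, while the 2 wild type livers had at most 0.257 CPM of Xist and at least 22.9 CPM of each Y-linked gene. Genotype and sex therefore cannot be told apart in liver, and these 5 sex-linked genes were all 5 genes called. Chd9 itself stood at 14.7 and 13.4 CPM in Chd9-/- liver and at 38.2 and 42.8 CPM in wild type liver, so the genotypes did not overlap. The log2 difference was -1.53 (edgeR adjusted p = 0.0779), with an adjusted p of 2.94e-14 in DESeq2, 0.00281 without a filter on low counts, 1 with the replicate block and 6.09e-08 with the crossed block. The authors report that the deleted allele still gives a shorter Chd9 mRNA, made of the exons left in place. Its part in the Chd9 counts of the Chd9-/- livers was not tested. The same 2 embryo numbers stand in the labels with Chd9-/- livers and with wild type brains, and genotypes were taken from the titles. Of 44 tested mouse genes in the red cell membrane, heme and transcription factor lists, 0 were called by edgeR and 0 by DESeq2 (1 at an unadjusted p under 0.05), beside 0.0322% of all 15515 genes tested. So few genes passed in liver, where edgeR did not call Chd9 itself, that 0 calls says little about these genes. Mouse globins carry other symbols than the human list and were added after their values were seen. Of 9 tested, 0 were called by edgeR and 0 by DESeq2, and Hbb-y, an embryonic beta-like globin, was the 1 at an unadjusted p under 0.05 in edgeR, with 1.44 to 2.28 CPM in Chd9-/- and 4.00 to 4.34 CPM in wild type (log2 difference -1.16, adjusted p = 1). The systems differ in species, time and kind of depletion, so these values stand beside those of K562 without a test between them.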

How the data were processed

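RNA was sequenced from K562 and SNB19 cells and from E15 mouse tissue with TruSeq libraries. The authors aligned the human reads to hg37 and the E15 reads to mm10 with TopHat2 (2.1 in the submitters' processing notes), counted reads per gene with HTSeq (0.5.3) and deposited raw counts per Ensembl gene and library. Strand setting and read length are not given in the sources used here. Groups came from the sample titles, and 0 columns lacked a sample.

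Counts were tested in R 4.3.3 with edgeR 4.0.16: TMM scaling, filterByExpr, the quasi-likelihood test and Benjamini-Hochberg adjustment over all genes tested (9171 in K562, 8758 in SNB19, 15515 in E15 liver). A call required an adjusted p under 0.05 together with a log2 fold change beyond 1. Both CHD9 hairpins formed 1 group against shRNA-Luc, and the hairpins were compared in a fit with 3 groups. CPM values use the effective library sizes of the K562 or SNB19 fit, except the SNB19 detection limit, which uses raw library totals. Fold changes use a prior count of 0.125, and the likeness profiles the larger prior count given with them. E15 liver libraries held 33039199 to 41914158 counts.

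GYPB, GYPE and the gene lists were chosen with earlier results of these data known. Named genes are the glycophorins, CHD9, per list the 3 genes of smallest p, members of a list at 0, the 5 genes closest in profile to GYPB and to GYPE, and protein-coding genes within 1 Mb. A few genes that the rule or a list would name are left out here, from the counts of the lists as well. Symbols, exon lengths, gene order and transcripts come from GENCODE v29, which is on another build than the files, so no positions are printed. Symbols were found for 90.4% of the human and 89.7% of the E15 identifiers. Sequence identity was computed from 1 transcript per gene.

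Replicate numbers were shared between groups. Same-numbered deviations from group means correlated between -0.02 and 0.03 in K562 and SNB19 and at -0.28 in E15 liver, so the numbers were not taken as pairs. Alternatives were DESeq2 1.42.0 (its size factors and its Wald test), other count filters, a replicate block, single hairpins, a 3-group fit and each library left out.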

Additional observations from a re-analysis of the deposited data

Results flagged for a closer look

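Of 38 genes examined one by one besides GYPB and GYPE, 16 differed between the 2 CHD9 hairpins in K562 at an adjusted p under 0.05 in edgeR's quasi-likelihood test, which is what singled them out. By adjusted p alone, 14.7% of all genes tested were lower and 15.2% higher with hairpin 1. Hairpin 1 minus hairpin 2 on the log2 scale was -1.13 for PRTN3 (adjusted p = 0.00617), -0.6 for ALAD (0.000351), -0.57 for SPI1 (9.06e-05) and -0.45 for FN1 (0.0113). Smaller negative differences were seen for ITGA2B at -0.32, HBG2 at -0.3, FECH at -0.26 and TMOD1 at -0.24. Positive differences were found for HBE1 at 0.26, STOM at 0.27 and CD3D at 0.32. The positive differences of COL1A2 at 0.94 (1.79e-05), EMILIN2 at 1.01 (adjusted p = 0.0477), CD44 at 1.07 (6.24e-08), ITGB3 at 1.39 (7.14e-06) and PAX5 at 2.49 (0.00628, from at most 11 counts per library) were larger. GYPB and GYPE had higher means with hairpin 1, and these differences did not pass the test.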

How the results depend on the processing

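GYPB kept a log2 fold change between -4.04 and -3.52 and GYPE one between -2.74 and -2.59 in K562 over 14 alternatives each. The counts were also summed over GYPB and GYPE, and no alternative gives a value for either gene in SNB19, where both were at 0. The K562 calls, 1180 in all, came to 1678 without a filter on low counts, 1637 with shRNA-CHD9#1 alone, 1370 with 3 groups in the fit and between 660 and 1291 when 1 library was left out. The SNB19 calls (348) came to between 124 and 470, and the calls between hairpins (369) to between 248 and 293, when 1 library was left out, and the latter to 134 with DESeq2. With the replicate block there were 1066, 303 and 366 calls, and GYPB and GYPE stood at -3.76 and -2.67. In E15 liver, 5 calls, all of them sex-linked genes, became 12 with DESeq2, 9 without a filter, 3 with the replicate block and between 5 and 7 with 1 library left out; pairing crossed numbers, an alternative added after the data were seen, gave 44. Of 563 values for 42 single-gene results besides GYPB and GYPE, 512 kept their side, 24 lost the threshold, 21 gained it and 6 changed sign. HBE1 was 0.11 with shRNA-CHD9#1 alone and ran from -0.15 to 0.13 with 1 library left out. LDB1 was 0.029 with shRNA-CHD9#2 alone and ran from -0.107 to 0.044. The cause of these shifts was not tested. At 37 to 62 counts per knockdown library, GYPB is measured less precisely than GYPE, and 2 control libraries limit every K562 fold change.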
